A study of Homo sapiens with 6 samples.

Results

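The genes described here are those of histone-modifying enzymes outside the core polycomb subunits, measured by RNA sequencing in AF22 cells after knockdown of COMMD3 and COMMD3-BMI1. They were picked by symbol alone: lysine demethylases (KDM), lysine methyltransferases (KMT and SETD), arginine methyltransferases (PRMT), lysine acetyltransferases (KAT), zinc-dependent histone deacetylases (HDAC) and sirtuins (SIRT). The rule found 67 of the 26485 gene symbols in the count tables, and 64 of them had enough counts to be tested. AF22 is an established human line of neural stem cells, made from induced pluripotent cells and grown as neuroepithelial-like progenitors. The 3 knockdown libraries carry the genotype label COMMD3/COMMD3-BMI1 knockdown, and the reagent is not described. The 3 control libraries were titled shControl, a control short hairpin RNA, and labelled WT for genotype. The labels name no treatment or time, and they do not say whether replicates came from separate cultures, so p-values measure the spread between these libraries.

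Histones are the proteins around which DNA is wound, and their tails carry acetyl and methyl groups that other proteins read. Acetyltransferases add acetyl groups, which are usually found at active genes, and deacetylases and sirtuins remove them. Methyl groups have different readers at different lysines: methylated lysine 4 of histone H3 (H3K4) marks active promoters and enhancers, H3K36 methylation lies over transcribed gene bodies, H3K9 methylation marks heterochromatin, and H3K27 trimethylation is the mark laid down by polycomb repressive complex 2. In neural stem cells these enzymes act in the choice between self-renewal and differentiation. The symbol rule is not a strict border with polycomb. KDM2B is also a subunit of a polycomb repressive complex 1 variant, and KDM6A and KDM6B remove the polycomb mark. BMI1, named in the knockdown label, is a polycomb repressive complex 1 subunit. SETD8 is an older symbol of KMT5A and was matched to it by synonym.

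COMMD3, the first gene named in the label, stood at 12.9, 11.3 and 10.5 CPM in the knockdown libraries, against 31.7, 29.7 and 27.6 CPM in the control libraries (CPM, read counts scaled to a common library size). The groups did not overlap, and its log2 fold change, knockdown over control, was −1.37 ± 0.10 (SE; adjusted p = 2.34e-12, edgeR). The log2 fold change of BMI1 was −0.07 ± 0.04, which missed the threshold (edgeR adjusted p = 0.206), and the read-through gene COMMD3-BMI1 was listed at 0 in all 6 libraries, where 3 counts would equal 0.259 to 0.42 CPM. Total counts lay between 8574066 and 9692967 in knockdown and between 7294687 and 11579849 in control libraries. Of the fixed marker lists, all 12 neural stem cell markers were measured well enough to test. Their summed level was 2668 to 2764 CPM in knockdown and 2680 to 2849 CPM in control libraries, with 1 marker higher and 5 lower. Over all tested genes 15.3% were higher and 18.1% lower, the background for this and the lists below. The largest parts of this sum were VIM (mean 1187 CPM in knockdown and 1150 CPM in control libraries) and NES (703 and 659 CPM). The sum thus says little of the other markers. Summed markers of other cell types did not overlap between the groups. Pluripotent-cell markers summed to 635 to 693 CPM in knockdown and 531 to 536 CPM in control libraries, with L1TD1 at 0, 1 gene higher and 1 lower of 3 tested of 5. Neuron markers summed to 628 to 655 CPM in knockdown and 678 to 731 CPM in control libraries (1 lower of 4 tested of 7). Astrocyte markers summed to 47.2 to 56.1 CPM in knockdown and 73.8 to 77.7 CPM in control libraries (GFAP at 0; 1 lower of 2 tested of 5). Oligodendrocyte-lineage markers summed to 154.9 to 161.7 CPM in knockdown and 176.5 to 185.6 CPM in control libraries (SOX10 at 0; 1 lower of 2 tested of 5). Endothelial markers summed to 92.6 to 105.2 CPM in knockdown and 137.1 to 144.6 CPM in control libraries (3 lower of 4 tested of 5), and leukocyte markers to under 1 CPM in every library, with 0 of 5 tested and CD3E at 0. The part of these markers in the results that follow was not tested. In RNA from bulk cells, fewer cells of a type and less RNA per cell cannot be told apart.

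Across the enzyme genes, knockdown went with small changes in both directions. By edgeR's quasi-likelihood test at an adjusted p under 0.05 over all genes, 19 of the 64 tested enzymes (29.7%) changed, where 33.3% of all 13632 tested genes did. Of these, 8 (12.5%) were higher in knockdown, against 15.3% of all tested genes, and 11 (17.2%) were lower, against 18.1%. With scaling by library size only, 10 enzymes were higher and 8 lower (28.1%, against 34.4% of all tested genes). In both of these edgeR fits of all 6 libraries the called share lay below the background. The gap was not tested and says nothing particular about these enzymes as a set. With DESeq2 5 were higher and 5 lower, 15.6% of the enzymes against 21.1% of all tested genes. Without knockdown replicate 1 the edgeR counts were 4 and 5 (14.1%, against 26.3% of all tested genes), and without control replicate 2 they were 5 and 6 (17.2%, against 28.0%). With length and GC trends taken out, 14 enzymes passed by edgeR (21.9%, against 33.9%). The share of enzymes called was below the background share in these 4 analyses too, and whether it differed from it was not tested. With no filter it was above, at 25.0% against 22.9% of all genes then tested by edgeR. Changes were also small: the called enzymes differed by 1.08 to 1.48-fold, and SIRT7 alone passed a 1.2-fold size. The median size of the log2 fold change over the 64 enzymes was 0.0958, against 0.136 over all tested genes, and the median with its sign was 0.01, against 0.00151. The libraries of the groups did not overlap for 24 enzymes (37.5%), against 44.3% of all tested genes, and HDAC4 was the called enzyme whose groups did overlap. Of the 45 enzymes that did not pass, 35 had a 95% interval of the log2 fold change inside a 1.2-fold difference in either direction. Most enzymes are well expressed here, with a mean of 10 CPM or more for 61 of 64; among all genes at that level 37.5% were called, 16.9% higher and 20.6% lower.

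**Figure D1:**
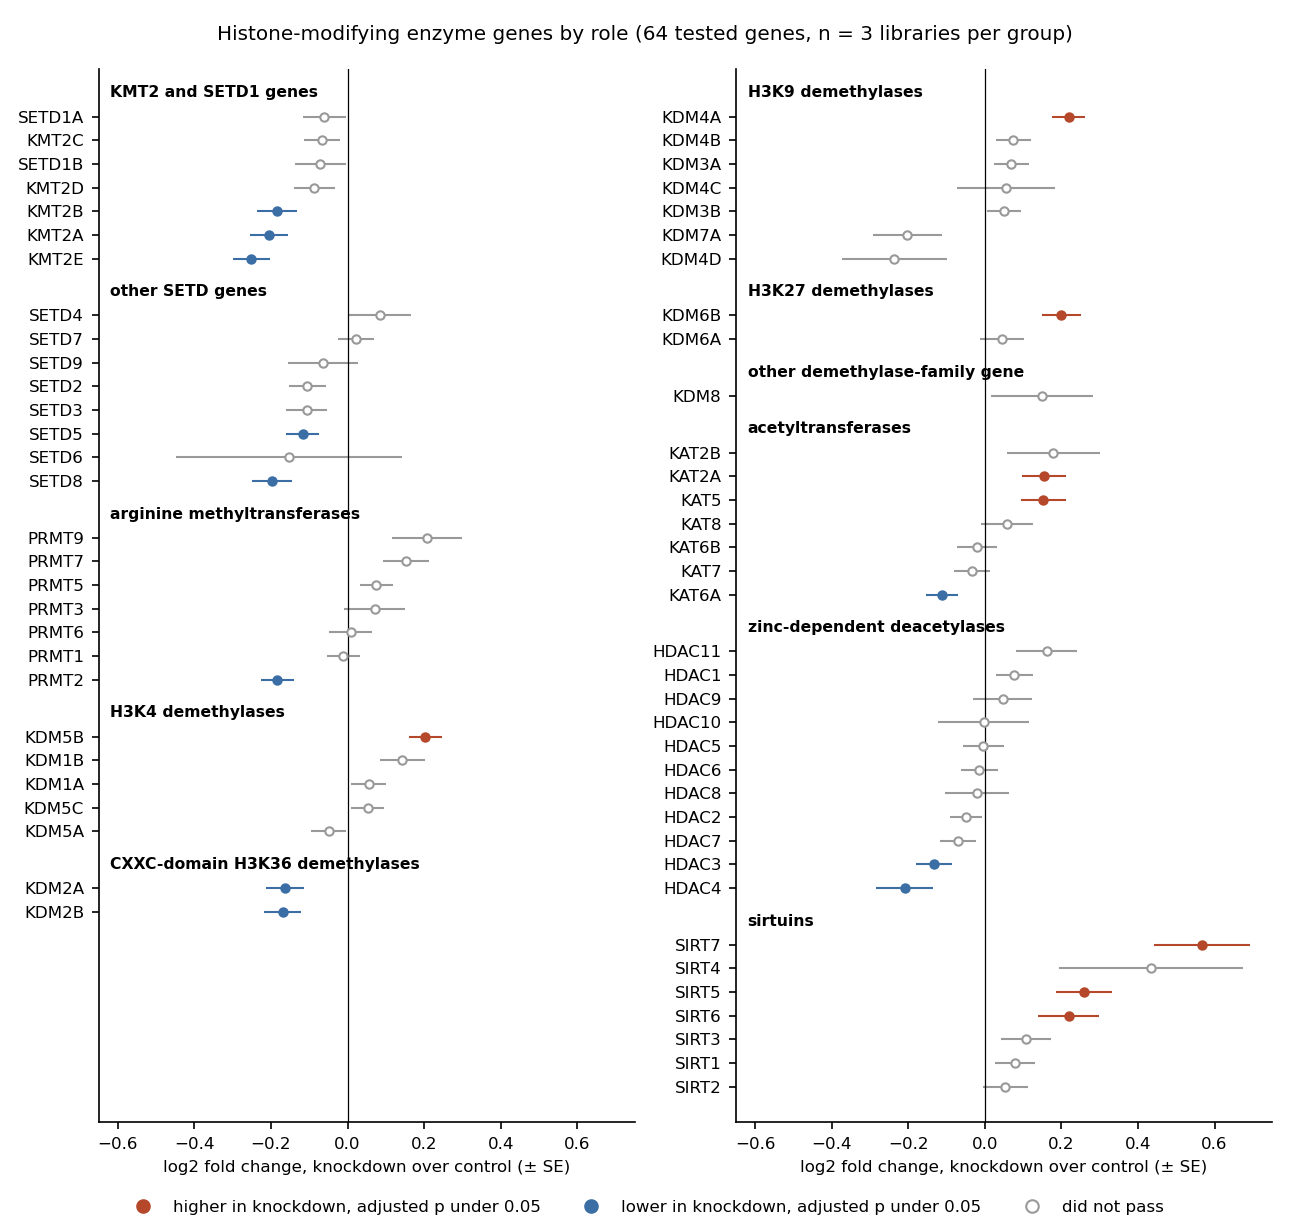
Log2 fold change (knockdown over control) with its SE for each of the 64 tested enzyme genes, grouped by role; filled points passed an edgeR adjusted p under 0.05 (red higher in knockdown, blue lower), open points did not. The 7 KMT2 and SETD1 genes all lie left of 0 (5 of 7 once length and GC trends are taken out), the 7 sirtuins all lie right of 0, and SIRT7 lies farthest from 0 at 0.57.

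Levels were compared between genes per kilobase of the longest protein-coding transcript. PRMT1, which makes most asymmetric dimethylarginine in mammalian cells, was the highest enzyme at 151 ± 4.41 CPM per kilobase in knockdown and 153 ± 4.16 in control libraries (SD, n = 3). It was followed by KDM1A (LSD1, the first histone demethylase described) at 87 ± 3.67 CPM per kilobase in knockdown and 83.8 ± 4.3 in control libraries. PRMT5, PRMT2, HDAC3 and HDAC1 came next, with means of 76.0, 74.5, 58.7 and 46.7 CPM per kilobase over all 6 libraries. PRMT5 and PRMT2 changed places between the groups: PRMT5 stood at 77.9 ± 1.45 and PRMT2 at 69.7 ± 0.462 CPM per kilobase in knockdown, against 74.1 ± 3.1 for PRMT5 and 79.2 ± 3.05 for PRMT2 in control libraries. Their mean ± SD met in the control libraries and did not meet in the knockdown libraries. In CPM not divided by length, PRMT2 lay above PRMT5 in knockdown (201 ± 1.33 and 197 ± 3.66) and in control libraries (228 ± 8.77 and 187 ± 7.84). The change of places thus rests on the transcript lengths used. So does the order of the deacetylases. In CPM not divided by length, HDAC2 was the highest of them at 316 ± 4.71 in knockdown and 327 ± 7.92 in control libraries. HDAC3 was at 110 ± 3.7 and 121 ± 5.17 CPM. With a transcript of 9874 bases, HDAC2 came to 32.0 and 33.1 CPM per kilobase. The highest genes of the other families were SETD5 at 36.4 ± 0.322, KAT5 at 26 ± 1.4, SIRT2 at 24.7 ± 0.266 and KMT2E at 22.3 ± 0.655 CPM per kilobase in knockdown, against 39.5 ± 1.35 for SETD5, 23.4 ± 1.48 for KAT5, 23.7 ± 1.34 for SIRT2 and 26.6 ± 1.95 for KMT2E in control libraries. SETD6 was the lowest tested enzyme at 0.431 ± 0.0355 CPM per kilobase in knockdown and 0.474 ± 0.0625 in control libraries, and 21.4% of its exon bases lie opposite CNOT1. Of the enzymes not tested, PRMT8, a brain-enriched arginine methyltransferase, had 10, 9 and 11 counts in knockdown and 7, 16 and 5 counts in control libraries, KDM4E had 0 counts in all 6, and values of KDM5D are not given here.

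**Figure D2:**
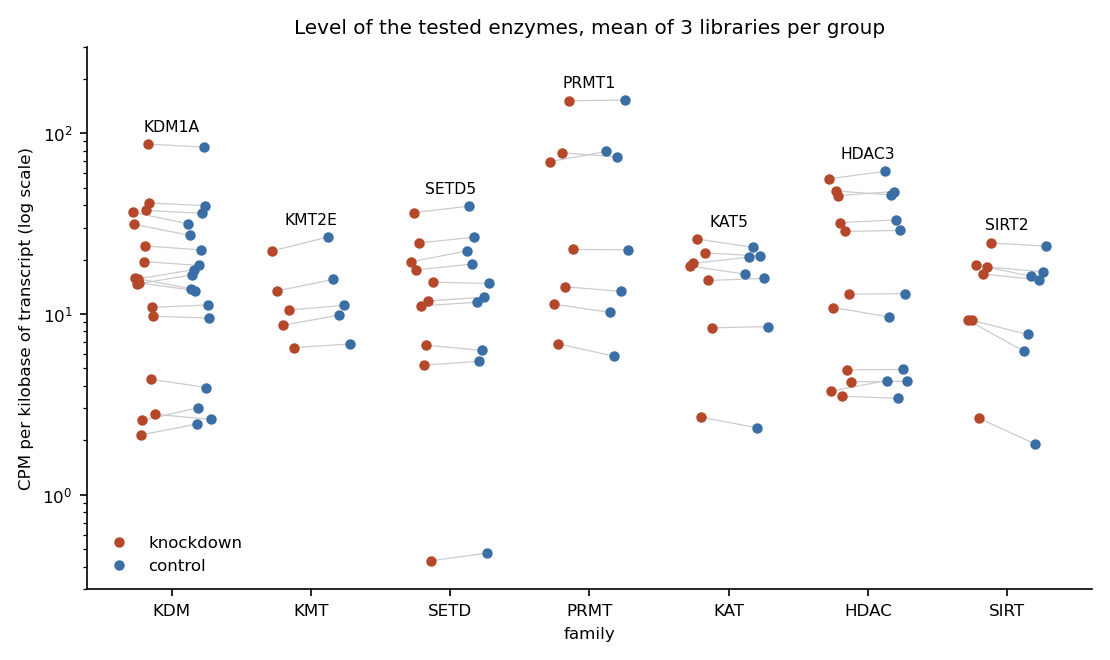
Mean level of each tested enzyme in CPM per kilobase of transcript (log axis) by gene family, with knockdown left and control right of each line; n = 3 libraries per group. PRMT1 is highest at about 151 in knockdown and 153 in control libraries and SETD6 lowest at 0.431 and 0.474; levels within every family span more than the knockdown moved any of them.

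The H3K4 methyltransferases of the COMPASS type (KMT2A, KMT2B, KMT2C, KMT2D, SETD1A and SETD1B) and their relative KMT2E included 3 of 7 that fell and 0 that rose, and all 7 log2 fold changes were negative, with a median of −0.09. Of all tested genes 18.1% were lower, and of those in the length range that holds these 7 genes 30.7% were. The sign was negative for 6760 and positive for 6872 of all tested genes, and the median in that length range was −0.06. By edgeR's unadjusted p under 0.05, by DESeq2 and by limma-voom the counts were the same. KMT2E (chr7:105014179-105114361 on GRCh38, plus strand), a SET-domain chromatin reader with no clear methyltransferase activity, had 155, 156 and 148 CPM in the knockdown libraries, against 169, 196 and 184 CPM in the control libraries. Every knockdown library lay below every control library, and KMT2E fell by 16% (log2 fold change −0.25 ± 0.05, edgeR adjusted p = 0.000163). KMT2A (MLL1; chr11:118436464-118526832, plus strand), which maintains HOX gene expression and is needed for neurogenesis in mouse neural stem cells, had 204, 234 and 232 CPM in the knockdown libraries, against 249, 252 and 272 CPM in the control libraries. Knockdown replicate 1 was the lowest library, and the groups did not overlap (log2 fold change −0.21 ± 0.05, edgeR adjusted p = 0.00179). KMT2B (MLL2; chr19:35718019-35738878, plus strand), which methylates H3K4 at bivalent promoters in embryonic stem cells, stood at 68.9, 73.1 and 78 CPM under knockdown and at 84.1, 83.4 and 82.2 CPM in control cells. Its 3 control libraries were tight and above all knockdown libraries (log2 fold change −0.18 ± 0.05, edgeR adjusted p = 0.00606), and without knockdown replicate 1 the call was lost (edgeR adjusted p = 0.0687). The enhancer H3K4 methyltransferases KMT2C and KMT2D and the broad H3K4 trimethylases SETD1A and SETD1B did not pass. Their log2 fold changes were −0.07 (95% interval −0.16 to 0.02) for KMT2C, −0.09 (−0.19 to 0.02) for KMT2D, −0.06 (−0.17 to 0.05) for SETD1A and −0.07 (−0.20 to 0.06) for SETD1B. The ratio of KMT2A to KMT2D counts overlapped between the groups. It was 1.12, 1.11 and 1.06 in the knockdown libraries and 1.21, 1.09 and 1.28 in the control libraries.

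Summed over the 7 genes, the level was 825, 906 and 902 CPM in the knockdown libraries and 939, 994 and 992 CPM in the control libraries. Knockdown replicate 1 was the lowest, no knockdown library reached a control library, and the ratio of means, knockdown over control, was 0.90. These are long transcripts, and long transcripts leaned lower in these data as a whole. When trends with length and GC content were taken out of each library, KMT2E and KMT2B stayed lower, KMT2A missed the threshold (log2 fold change −0.10, edgeR adjusted p = 0.0843), and KMT2C (0.04) and KMT2D (0.01) lay above 0. Without control replicate 3, SETD1A lay just above 0 (0.0018). An unnamed-locus transcript, AP001267.5, shares 17.9% of the exon bases of KMT2A on the same strand.

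Of 5 tested demethylases that take methyl groups off H3K4, 1 rose (20%, against 15.3% of all tested genes), 0 fell (against 18.1%) and 4 did not pass by edgeR. Their median log2 fold change was 0.06. At an unadjusted p under 0.05, 2 rose and 0 fell, and DESeq2 and limma-voom each gave 1 and 0. KDM5B (JARID1B; chr1:202724495-202809470, minus strand), which demethylates H3K4 at promoters and is expressed in proliferating progenitors, had 318, 331 and 322 CPM in the knockdown libraries, against 273, 287 and 285 CPM in the control libraries. All knockdown libraries were above all control libraries, and KDM5B rose by 15.1% (log2 fold change 0.20 ± 0.04, edgeR adjusted p = 0.000441). Its paralogs did not pass: KDM5A had a log2 fold change of −0.05 (95% interval −0.14 to 0.04) and KDM5C, a gene of X-linked intellectual disability, of 0.05 (−0.03 to 0.14). The ratio of KDM5B to KDM5A counts was 2.77, 2.78 and 2.76 in the knockdown libraries and 2.18, 2.45 and 2.38 in the control libraries. The ratio of KDM5B to KMT2A counts, a demethylase over a methyltransferase of the same lysine, was 1.56, 1.42 and 1.39 in the knockdown libraries and 1.10, 1.14 and 1.05 in the control libraries. Neither ratio overlapped between the groups, and both are counts of RNA, not of enzyme or of its mark. KDM5B was higher and KMT2A lower in every knockdown library, so their ratio could not overlap and adds nothing to the 2 calls. The ratio to KDM5A also holds the called KDM5B and is no separate support for its rise. KDM1A stood at 259.7, 279 and 259 CPM under knockdown and at 247, 252 and 271 CPM in control cells, with overlapping groups and a log2 fold change of 0.06 (95% interval −0.04 to 0.15). Its relative KDM1B, an H3K4 demethylase of gene bodies and oocytes, had 56.6 ± 3.38 CPM in knockdown and 51.3 ± 1.58 CPM in control libraries; the groups did not overlap, and it missed the threshold (log2 fold change 0.14 ± 0.06, edgeR adjusted p = 0.0611).

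Both CXXC-domain demethylases, which bind unmethylated CpG islands and remove H3K36 methylation, fell, where 18.1% of all tested genes were lower. KDM2B (chr12:121429097-121581015, minus strand), the CpG-island recruiter of a polycomb repressive complex 1 variant, had 76.4, 76.8 and 75.8 CPM in the knockdown libraries, against 86, 84 and 87.9 CPM in the control libraries. The spread within each group was small beside the gap (log2 fold change −0.17 ± 0.05, edgeR adjusted p = 0.00644), and with DESeq2 the call was lost (adjusted p = 0.0576). KDM2A (chr11:67119269-67258087, plus strand) stood at 100.1, 116 and 111 CPM under knockdown and at 118, 125 and 124 CPM in control cells. Knockdown replicate 1 was the lowest, and the groups came close without overlapping (log2 fold change −0.16 ± 0.05, edgeR adjusted p = 0.0116). The KDM2A call was lost without knockdown replicate 1 (edgeR adjusted p = 0.153) and without control replicate 2 (0.0582). It was also lost with DESeq2 (0.0566) and once length and GC trends were taken out (edgeR, 0.0677). Summed, the pair was at 176.5, 192.7 and 186.9 CPM in knockdown and 204.0, 208.7 and 212.1 CPM in control libraries.

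KDM2A also carries, in its 3′ UTR, the base word TCATCCA, which an earlier analysis of these data had linked to lower levels in knockdown. The site is shown with those of PRMT2, the other changed enzyme that holds the word, and of 2 holders that did not pass, as 29 bases of sense-strand transcript from GENCODE v29 with the word in capitals.
KDM2A: tttgggacattTCATCCAcagaaatttcc
PRMT2: actgccgtcgcTCATCCActcgtgtggga
KDM5A: ttccttcctaaTCATCCAttaactattcc
SETD1B: ggtagactccaTCATCCAtatgtaacttg
The presence of the word was counted, not its surroundings. Of 64 enzymes with a 3′ UTR of 50 bases or more, 9 (14.1%) held it, against 1466 of 12431 tested genes (11.8%). Of the 9, 2 fell, 0 rose and 7 did not pass; the other 5 holders besides KDM5A and SETD1B were HDAC2, HDAC9, HDAC10, KAT6B and KAT7. The median log2 fold change was −0.05 for enzymes with the word and 0.05 for those without, and −0.10 with and 0.02 without over all tested genes. Over all tested genes 38.5% with the word and 16.1% without were lower in knockdown. The word was linked to lower levels in these same data, so this split is no separate test of it. The part of 3′ UTR length, which raises the odds of holding any word, was not tested. The other 9 enzymes that fell, KMT2E and KMT2A among them, do not hold the word.

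Demethylases of H3K9 and H3K27 included 2 further rises, 1 of 7 tested for H3K9 and 1 of 2 for H3K27, where 15.3% of all tested genes were higher. KDM4A (JMJD2A; chr1:43650158-43705515, plus strand), which removes trimethylation from H3K9 and H3K36, had 160.2, 164 and 167 CPM in the knockdown libraries, against 137, 144 and 142 CPM in the control libraries. The groups were well apart, with a rise of 16.4% (log2 fold change 0.22 ± 0.04, edgeR adjusted p = 0.000223). Its reads may not all be its own, since AL451062.3 overlaps 40.2% of its exon bases on the same strand and KDM4A-AS1 lies opposite 8.97%. KDM4B had a log2 fold change of 0.07, KDM4C of 0.06 and KDM4D of −0.24, and none passed; the 95% interval of KDM4C, −0.20 to 0.31, and of KDM4D, −0.51 to 0.03, were wide at 7.67 to 13.0 mean CPM. KDM3A (0.07) and KDM3B (0.05), which remove mono- and dimethylation of H3K9, did not pass either. KDM7A, an H3K9 and H3K27 demethylase of neural development, had 19.8 ± 0.713 CPM in knockdown and 22.8 ± 1.41 CPM in control libraries, with groups that did not overlap and a log2 fold change short of the threshold (−0.20 ± 0.09, edgeR adjusted p = 0.0811).

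KDM6B (JMJD3; chr17:7839904-7854796, plus strand) removes H3K27 trimethylation and is needed for neural commitment of mouse embryonic stem cells. It stood at 99.6, 109.9 and 108 CPM under knockdown and at 87.3, 98.2 and 91.8 CPM in control cells. The lowest knockdown library, replicate 1, was just above the highest control library, replicate 2 (log2 fold change 0.20 ± 0.05, edgeR adjusted p = 0.00299). KDM6A (UTX), the X-linked H3K27 demethylase found in KMT2C and KMT2D complexes, had a log2 fold change of 0.04 (95% interval −0.07 to 0.16) and overlapping groups. The remaining demethylase-family gene, KDM8, was at 10.7 ± 1.73 CPM in knockdown and 9.64 ± 0.336 CPM in control libraries and did not pass (log2 fold change 0.15, 95% interval −0.11 to 0.41).

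**Figure D3:**
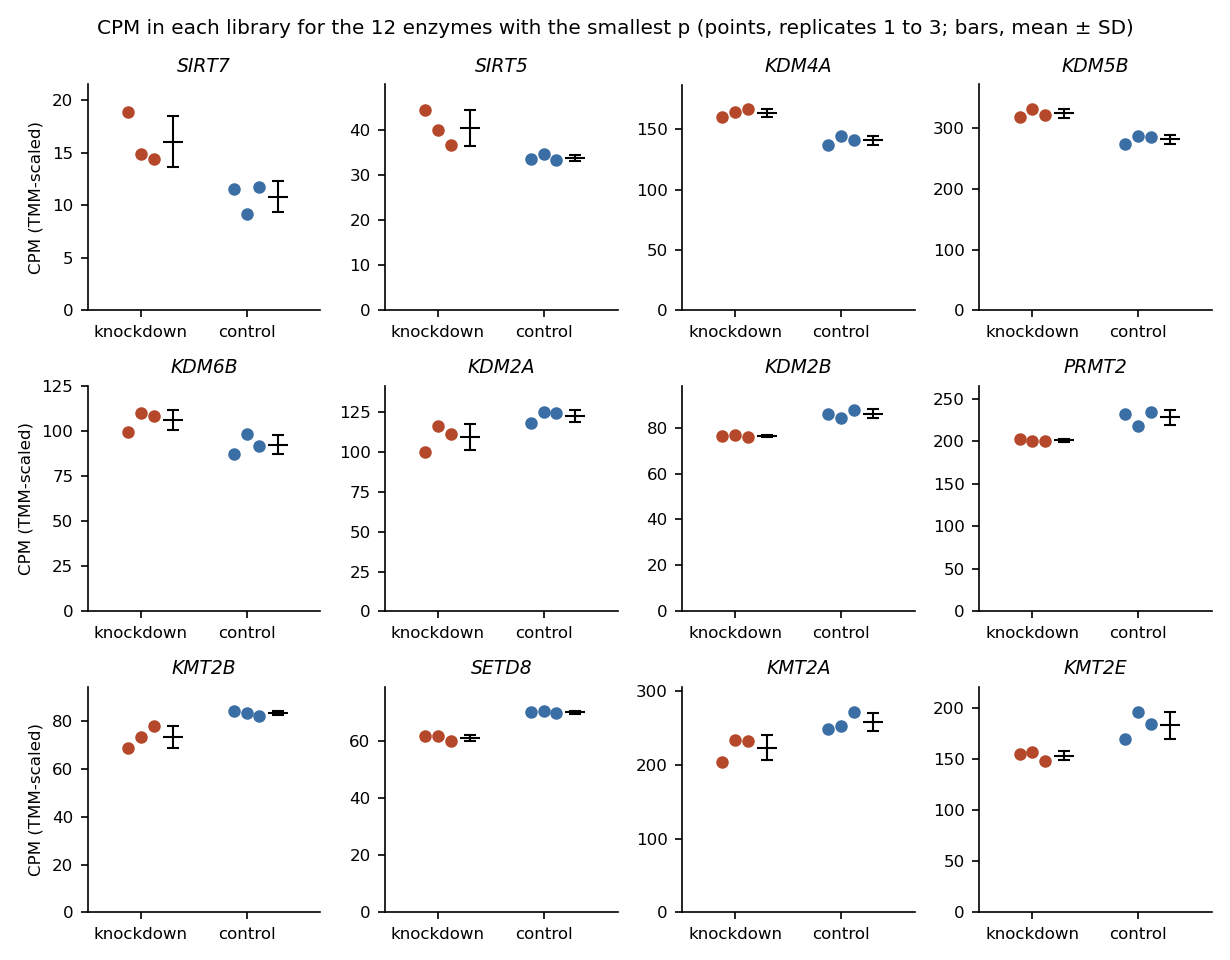
CPM in each library for the 12 enzymes with the smallest p, one point per replicate with the mean and SD beside it, knockdown (red) left of control (blue); every axis starts at 0. For all 12 the points of the groups do not overlap, and the gaps are small beside the levels except for SIRT7, at 16.0 ± 2.44 CPM in knockdown and 10.8 ± 1.46 CPM in control libraries.

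Among the other SETD genes, 2 of 8 fell (25%, against 18.1% of all tested genes), 0 rose (against 15.3%) and 6 did not pass. Their median log2 fold change was −0.11. At an unadjusted p under 0.05 edgeR gave 3 lower and 0 higher, DESeq2 after adjustment 1 and 0, and limma-voom 2 and 0. SETD8 (KMT5A; chr12:123383773-123409358, plus strand), the sole H4K20 monomethylase and a cell-cycle enzyme needed for genome stability, had 61.6, 61.8 and 59.9 CPM in the knockdown libraries, against 69.9, 70.5 and 69.5 CPM in the control libraries. Both groups were tight and apart (log2 fold change −0.20 ± 0.05, edgeR adjusted p = 0.00366). SETD5, a gene of intellectual disability whose product is found with the NCoR-HDAC3 complex, was at 246, 250.2 and 249 CPM under knockdown and at 264, 265 and 280.2 CPM in control cells. The groups did not overlap, and it fell by 7.83% (log2 fold change −0.12 ± 0.04, edgeR adjusted p = 0.034). The SETD5 call was lost in 5 of the 6 fits that left out a library, all but that without control replicate 1, at edgeR adjusted p between 0.0649 (without control replicate 2) and 0.121 (without knockdown replicate 1); it was also lost with DESeq2 (0.062). With length and GC trends taken out, its log2 fold change was −0.058 and it did not pass (edgeR adjusted p = 0.308, and 0.290 with the replicate block). SETD2, which lays down H3K36 trimethylation, missed the threshold with groups that did not overlap (log2 fold change −0.11 ± 0.05, edgeR adjusted p = 0.0884). The actin histidine methyltransferase SETD3 had a log2 fold change of −0.11, SETD7 (an H3K4 monomethylase of many non-histone targets) 0.02, SETD4 0.09, SETD9 −0.06 and SETD6 −0.15, and none of the 5 passed.

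Of 7 tested arginine methyltransferases, 1 fell (14.3%, against 18.1% of all tested genes), 0 rose (against 15.3%) and 6 did not pass by edgeR. At an unadjusted p under 0.05, 2 were higher and 1 lower, and DESeq2 and limma-voom after adjustment gave 0 higher and 1 lower. PRMT2 (chr21:46635167-46665124, plus strand), a weak type I enzyme and nuclear receptor coactivator, had 202, 201 and 199.5 CPM in the knockdown libraries, against 232, 218 and 235 CPM in the control libraries. All knockdown libraries sat within 199.5 to 202.2 CPM, below the lowest control library (log2 fold change −0.18 ± 0.04, edgeR adjusted p = 0.00138). Its 3′ UTR site is shown above with that of KDM2A. PRMT1 stood at 262, 256 and 247 CPM under knockdown and at 249, 259.6 and 263 CPM in control cells, with overlapping groups and a log2 fold change of −0.01 (95% interval −0.10 to 0.07), so a change of 1.2-fold lies outside its interval. The ratio of PRMT2 to PRMT1 counts was 0.788 ± 0.0181 in knockdown and 0.887 ± 0.0448 in control libraries (SD, n = 3). This ratio holds the called PRMT2 and is no separate support for its fall. PRMT5, the main symmetric dimethylase, which neural progenitors need in the mouse, did not pass (log2 fold change 0.08, 95% interval −0.01 to 0.16), and PRMT5-AS1 lies opposite 27.1% of its exon bases. The monomethylase PRMT7 (0.15 ± 0.06, edgeR adjusted p = 0.0526) and the splicing-factor methylase PRMT9 (0.21 ± 0.09, edgeR adjusted p = 0.0772) had higher values in every knockdown library than in any control library and missed the threshold. PRMT3, which methylates a ribosomal protein, had a log2 fold change of 0.07 and the H3R2 methylase PRMT6 of 0.01.

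Of 7 tested acetyltransferases, 2 rose (28.6%, against 15.3% of all tested genes), 1 fell (14.3%, against 18.1%) and 4 did not pass. KAT2A (GCN5), the acetyltransferase of the SAGA and ATAC coactivators, had 57.6, 56 and 58.2 CPM in the knockdown libraries, against 51.9, 48.7 and 54.1 CPM in the control libraries and rose by 11.4% (log2 fold change 0.16 ± 0.06, edgeR adjusted p = 0.0378). KAT5 (TIP60), the NuA4 acetyltransferase of DNA repair, was at 59.8, 56.3 and 62.7 CPM under knockdown and at 55.9, 49.7 and 55.2 CPM in control cells. The lowest knockdown library, replicate 2, was just above the highest control library, replicate 1 (log2 fold change 0.15 ± 0.06, edgeR adjusted p = 0.0487). RNASEH2C lies opposite 38.6% of the exon bases of KAT5, so its reads may be mixed. KAT6A (MOZ), which acetylates H3K9 and H3K23 and supports stem cell self-renewal, had 172, 178 and 179 CPM in the knockdown libraries, against 193, 188 and 191 CPM in the control libraries and fell by 7.45% (log2 fold change −0.11 ± 0.04, edgeR adjusted p = 0.0424). All 3 calls were weak, and DESeq2 gave 0 calls in this family (0 higher and 1 lower at an unadjusted p under 0.05). The KAT6A call was lost without any 1 of the 6 libraries, at edgeR adjusted p between 0.0525 and 0.197. It was also lost under RLE, upper-quartile and library-size scaling and with no filter (edgeR adjusted p 0.0512 to 0.0759), and with length and GC trends taken out its log2 fold change was −0.043 (edgeR adjusted p = 0.452). The KAT2A call was lost without each library but control replicate 3 (edgeR adjusted p 0.0584 to 0.158), and the KAT5 call without control replicates 2 and 3 and knockdown replicates 1 and 3 (0.0544 to 0.233). With no filter KAT2A (edgeR adjusted p = 0.0512) and KAT5 (0.0501) did not pass, nor did KAT5 with limma-voom (0.0509) or with length and GC trends taken out (edgeR, 0.0755). KAT2B (PCAF) had a log2 fold change of 0.18, KAT8 (MOF, the H4K16 acetyltransferase) of 0.06, KAT7 (HBO1) of −0.03 and KAT6B (MORF) of −0.02, and none passed.

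Differences were small among the zinc-dependent deacetylases: 2 of 11 fell (18.2%, against 18.1% of all tested genes) and 0 rose (against 15.3%). The median size of their log2 fold changes was 0.0492, the smallest of the role groups. At an unadjusted p under 0.05 edgeR also gave 2 lower and 0 higher, limma-voom gave 2 and 0, and DESeq2 0 and 0 (2 and 0 before adjustment). Summed, they stood at 1025, 1048 and 1047 CPM in the knockdown libraries and 1055, 1067 and 1085 CPM in the control libraries, a ratio of means of 0.973. HDAC3, the catalytic subunit of a nuclear corepressor complex, had 110.5, 113 and 106 CPM in the knockdown libraries, against 115, 123 and 124 CPM in the control libraries. The groups were narrowly apart (log2 fold change −0.13 ± 0.05, edgeR adjusted p = 0.0276). HDAC4, a class IIa deacetylase that shuttles to the cytoplasm in neurons, was at 33.7, 34.3 and 32.8 CPM under knockdown and at 41.2, 40.8 and 33.3 CPM in control cells. Control replicate 3 lay inside the range of the knockdown libraries, so the groups overlapped, and the log2 fold change was −0.21 ± 0.08 (edgeR adjusted p = 0.0311). The HDAC3 call was lost without control replicate 2 or 3 or knockdown replicate 1 or 3 (edgeR adjusted p 0.0569 to 0.127), and the HDAC4 call without each library but control replicate 3 (0.0543 to 0.194). Library-size scaling also ended both calls (edgeR adjusted p = 0.0552 for HDAC3 and 0.0636 for HDAC4), and taking out length and GC trends ended that of HDAC4 (0.105). HDAC1 and HDAC2, the paired class I enzymes of the SIN3, NuRD and CoREST complexes, did not pass. HDAC1 had a log2 fold change of 0.08 (95% interval −0.02 to 0.17) and HDAC2 of −0.05 (−0.13 to 0.03), so a 1.2-fold change lies outside both intervals. The ratio of HDAC3 to HDAC1 counts was 1.12, 1.07 and 1.04 in the knockdown libraries and 1.24, 1.25 and 1.25 in the control libraries. This ratio holds the called HDAC3 and is no separate support for its fall. The other 7 deacetylases had log2 fold changes between −0.07 for the class IIa enzyme HDAC7 and 0.16 for the class IV enzyme HDAC11. MAPK12 shares 55.8% of the exon bases of HDAC10 on the same strand.

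Of the sirtuins, the NAD-dependent deacylases, 3 of 7 rose and 0 fell, and all 7 log2 fold changes were positive, with a median of 0.22. Of all tested genes 15.3% were higher, and 17.4% of those in the short range that holds most sirtuins. The sign was positive for 6872 and negative for 6760 of all tested genes, and the median in that short range was 0.04. At an unadjusted p under 0.05 edgeR also gave 3 higher and 0 lower, limma-voom gave 3 and 0, and DESeq2 2 and 0. Of the 3 that rose, SIRT5 and SIRT6 hold a palindromic NRF1 word in their promoter, and these promoters are printed because their genes moved the same way. Each is the stretch that RefSeq (GRCh38.p14) gives from 250 bases before to 50 bases after the transcription start, read along the gene, with the word in capitals. SIRT5 is at chr6:13574351-13574650 on the plus strand, with the word starting 140 bases before the start, and SIRT6 at chr19:4182514-4182813 on the minus strand, with the word starting 111 bases before it.
SIRT5: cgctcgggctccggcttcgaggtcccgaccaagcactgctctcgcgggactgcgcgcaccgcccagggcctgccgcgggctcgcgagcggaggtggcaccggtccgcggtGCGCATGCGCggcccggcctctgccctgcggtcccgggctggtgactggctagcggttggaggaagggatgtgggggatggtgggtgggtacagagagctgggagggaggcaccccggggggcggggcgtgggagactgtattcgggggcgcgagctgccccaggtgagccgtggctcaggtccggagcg
SIRT6: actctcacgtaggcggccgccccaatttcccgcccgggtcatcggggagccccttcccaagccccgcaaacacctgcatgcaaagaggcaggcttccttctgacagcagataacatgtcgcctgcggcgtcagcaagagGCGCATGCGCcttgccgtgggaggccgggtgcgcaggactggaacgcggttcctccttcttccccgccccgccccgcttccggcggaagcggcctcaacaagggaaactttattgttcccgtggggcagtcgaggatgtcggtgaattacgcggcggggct
The word reads the same on both strands. It was found in 4 of 85 promoters of 59 enzymes (4.71%), both of SIRT5's, 1 of SIRT6's and SETD4's, against 1.24% of all 35116 promoters in the table. By gene, 3 of 59 enzymes held it. It was 1 of several words searched, GC content of the promoters was not matched, and the difference in share was not tested. SETD4 did not pass. The printed promoters were picked by the direction of their genes, so the shared rise is no test of the word. How often other genes with the word rose was not counted. The GC box GGGCGG, searched on both strands like the rest, was in 69.4% of enzyme promoters and 45.0% of all, and CCAAT in 30.6% of enzyme promoters and 34.6% of all. A STAT-type word TTCNNNGAA was in 2.35% of enzyme promoters (HDAC4 and HDAC8) and 7.66% of all, and the core of the interferon-stimulated response element in 1.18% (SIRT4) and 3.57% of all. The cyclic AMP response word TGACGTCA was in 1.18% (SIRT4) and 1.85% of all. Words for E2F (TTTGGCGC) and C/EBP-ATF (TGATGCAA) were in 0 enzyme promoters, against 0.652% and 0.866% of all. A match describes the letters and says nothing of binding.

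SIRT7 (chr17:81911939-81921323, minus strand), a nucleolar deacetylase of H3K18 that supports ribosomal RNA transcription, had 18.8, 14.9 and 14.4 CPM in the knockdown libraries, against 11.6, 9.14 and 11.8 CPM in the control libraries. Knockdown replicate 1 was the highest library and control replicate 2 the lowest, and the groups did not overlap. At 1.48-fold, it had the largest change of the 19 (log2 fold change 0.57 ± 0.13, edgeR adjusted p = 0.000738). SIRT5 (chr6:13574529-13615158, plus strand), a mitochondrial enzyme that removes succinyl and malonyl groups, was at 44.4, 39.9 and 36.6 CPM under knockdown and at 33.4, 34.5 and 33.2 CPM in control cells. The control libraries were tight and the knockdown libraries spread above them (log2 fold change 0.26 ± 0.07, edgeR adjusted p = 0.0071), and without knockdown replicate 1 the call was lost (edgeR adjusted p = 0.0826). SIRT6, which deacetylates H3K9 and H3K56 at telomeres and damaged DNA, had 30.9, 31.3 and 29.7 CPM in the knockdown libraries, against 25.1, 25.7 and 28.7 CPM in the control libraries. The groups were apart (log2 fold change 0.22 ± 0.08, edgeR adjusted p = 0.032), and the call was lost without control replicate 1 (0.156) or 2 (0.0841) and without knockdown replicate 1 (0.0757) or 2 (0.0991). It was also lost with DESeq2 (adjusted p = 0.142) and with length and GC trends taken out (edgeR adjusted p = 0.0659, and 0.0568 with the replicate block). AL441883.1 lies opposite 16.1% of the exon bases of SIRT5.

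The 4 sirtuins that did not pass were SIRT4, SIRT3, SIRT1 and SIRT2. SIRT4, a mitochondrial regulator of glutamine use, was low at 3.46, 3.61 and 2.57 CPM in knockdown and 2.42, 2.86 and 1.68 CPM in control libraries, with overlapping groups and a wide 95% interval of the log2 fold change (−0.04 to 0.90). The mitochondrial deacetylase SIRT3 had a log2 fold change of 0.11 (−0.02 to 0.24), and SIRT1, which acts in the self-renewal and fate of neural stem cells, of 0.08 (−0.03 to 0.18). SIRT2, the mainly cytoplasmic tubulin deacetylase, stood at 51.3, 51.6 and 50.5 CPM under knockdown and at 49.3, 51.8 and 46.2 CPM in control cells, with overlapping groups (log2 fold change 0.05, 95% interval −0.06 to 0.17). Summed over the 7 genes, sirtuins were at 264, 259 and 251 CPM in the knockdown libraries and 234, 236 and 225 CPM in the control libraries. No control library reached a knockdown library, and the ratio of means was 1.11. All 7 stayed above 0 in each of the 16 other analyses of the same libraries, while the number that passed ranged between 1 (without knockdown replicate 1) and 3.

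Across the 64 enzymes, the difference went with transcript length. The correlation of log2 fold change with the log of transcript length had Pearson's r of −0.42 and Spearman's rho of −0.40 over the enzymes, and −0.08 and −0.18 over 13302 tested genes; these are descriptions across genes that share the same 6 libraries. Among the 22 longest enzymes (6451 to 19419 bases) 2 were higher, 7 lower, and the median log2 fold change was −0.07. Of the 2063 tested genes in the same length range, 11.5% were higher and 30.7% lower, with a median of −0.06. Among the 21 shortest enzymes (1217 to 3059 bases) 3 were higher and 2 lower, with a median of 0.06, and of tested genes in that range 17.4% were higher and 12.5% lower. The 21 in between (3109 to 6096 bases) also had 3 higher and 2 lower, with a median of 0.07, while of the 4990 tested genes in that range 15.7% were higher and 20.4% lower, with a median of −0.01. KDM5B and KDM6B were the long enzymes that rose, and PRMT2 and HDAC3 the short ones that fell. The KMT2 genes are long and most sirtuins short, so role and length cannot be fully told apart here. With the length and GC trend removed, 8 enzymes were higher and 6 lower.

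**Figure D4:**
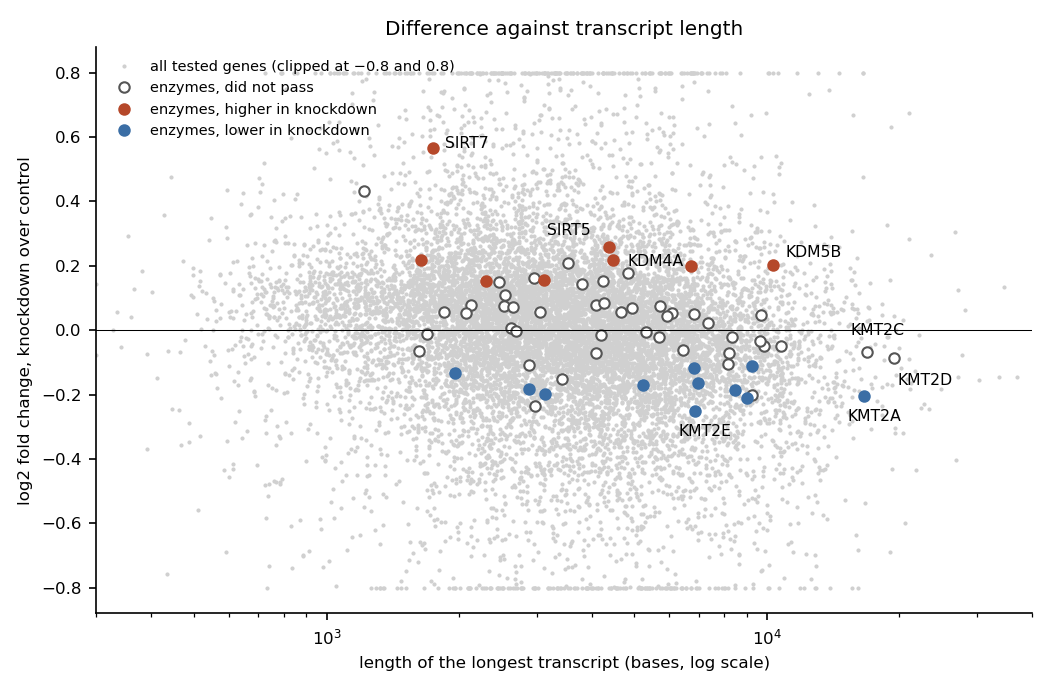
Log2 fold change (knockdown over control) against the length of the longest protein-coding transcript in bases (log axis) for 64 tested enzymes over all tested genes (grey, drawn at the upper or lower edge where beyond it). The 22 longest enzymes hold 7 of the 11 that were lower, KMT2A among them, while KDM5B is a long enzyme at 0.20.

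Enzymes of the same kind whose names fall outside the symbol rule (CARM1, EP300, EHMT1, the NSD and SMYD genes and others) gave a similar share: of 36, 31 were tested, 3 were higher and 7 lower (32.3% called, against 33.3% of all tested genes), with a median of −0.05. The N-acetyltransferase NAA60, which acetylates free histone H4 and membrane proteins, had 77.4 ± 2.46 CPM in knockdown and 92.4 ± 3.81 CPM in control libraries (log2 fold change −0.25 ± 0.05, edgeR adjusted p = 0.000197). The H3K36 dimethylases NSD2 (listed as WHSC1) and NSD3 (WHSC1L1) both fell. NSD2 had 401 ± 7.43 CPM in knockdown and 456 ± 12 CPM in control libraries (log2 fold change −0.19 ± 0.04, edgeR adjusted p = 0.00109) and for NSD3 the log2 fold change was −0.15 ± 0.05 (edgeR adjusted p = 0.0149). SMYD4 (−0.22), SMYD2 (−0.23), the H3K9 trimethylase SUV39H2 (−0.16) and PHF8 (−0.14), a demethylase of H3K9 and H4K20, were the others lower, and SMYD3 (0.25), MINA (0.19) and SMYD5 (0.13) were higher, all as log2 fold changes. These calls were fragile: with DESeq2, 0 of the 31 were higher and 2 lower (2 and 6 at an unadjusted p under 0.05). Without control replicate 2 edgeR gave 1 higher and 4 lower, and without control replicate 3 or any 1 knockdown library 1 was higher.

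The enzymes work in complexes, and among 101 tested partner subunits 10 were higher and 20 lower (29.7% called, against 33.3% of all tested genes), with a median of −0.01. Without knockdown replicate 2, 6 were higher, and with DESeq2 4 were. The falls included larger ones than any among the enzymes that fell. MORF4L1 (MRG15), a reader of H3K36 methylation in the NuA4 acetyltransferase and SIN3 deacetylase complexes, had 235, 229 and 229 CPM in the knockdown libraries, against 341, 334 and 342 CPM in the control libraries. The groups lay far apart beside their spread (log2 fold change −0.55 ± 0.04, edgeR adjusted p = 7.68e-12). MBD2, the methyl-CpG binding subunit of NuRD, stood at 35.4, 31.2 and 32.1 CPM under knockdown and at 46.8, 49.5 and 43.9 CPM in control cells. Every knockdown library was below every control library (log2 fold change −0.51 ± 0.07, edgeR adjusted p = 9.88e-07). ING5, an H3K4 trimethyl reader with KAT7 and KAT6A, had 50.4 ± 1.61 CPM in knockdown and 68.3 ± 3.61 CPM in control libraries (log2 fold change −0.44 ± 0.06, edgeR adjusted p = 3.46e-07).

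Among 40 tested partners of the deacetylases, 3 were higher (7.5%, against 15.3% of all tested genes) and 9 lower (22.5%, against 18.1%). NCOR1, a scaffold of the HDAC3 corepressor, had 261 ± 7.76 CPM in knockdown and 308 ± 15.8 CPM in control libraries (log2 fold change −0.23 ± 0.05, edgeR adjusted p = 0.000174), and for GPS2 of the same complex the log2 fold change was −0.32 ± 0.06 (edgeR adjusted p = 0.000191). GPS2 shares 44.7% of its exon bases with another gene on its strand. The SIN3 subunit SAP130 (−0.28, edgeR adjusted p = 4.25e-05), the mitotic deacetylase-complex gene ELMSAN1 (−0.29, edgeR adjusted p = 3.2e-05) and the NuRD subunit CDK2AP1 (−0.21, edgeR adjusted p = 0.000564) also fell. Of 15 partners of the COMPASS methyltransferases, 2 were higher (13.3%) and 4 lower (26.7%). The lower ones were the coactivator NCOA6 (−0.21), PAXIP1 (−0.24), both found with KMT2C and KMT2D, PSIP1 (LEDGF, −0.18), which tethers KMT2A with menin, and HCFC1 (−0.16), and the core subunit ASH2L (0.12) and BOD1 (0.14) were higher. Of 48 acetyltransferase partners, 5 were higher (10.4%) and 8 lower (16.7%). CCDC101 (SGF29), the H3K4 reader of SAGA, had 20.9 ± 1.01 CPM in knockdown and 15.4 ± 1.52 CPM in control libraries and rose (log2 fold change 0.43 ± 0.10, edgeR adjusted p = 0.00114), as did EPC1 of NuA4 (0.19), while the NuA4 ATPase EP400 (−0.25) and SUPT7L of SAGA (−0.17, with 20.1% of its exon bases opposite another gene) fell.

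How firmly each enzyme call stood was read from 16 other analyses of the same counts (10 changes of scaling, filter, tool or model, and 6 fits without a library). KDM4A, KDM5B, KDM6B, KMT2E, PRMT2, SETD8 and SIRT7 passed in every one. None of the 19 changed sign. At an adjusted p under 0.01, 5 enzymes were higher and 6 lower. Some enzymes that did not pass came through elsewhere. KDM1B and PRMT7 passed in 6 alternatives each, and PRMT9, SETD2, SETD3, KDM3B and KDM4B in between 1 and 3.

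**Figure D5:**
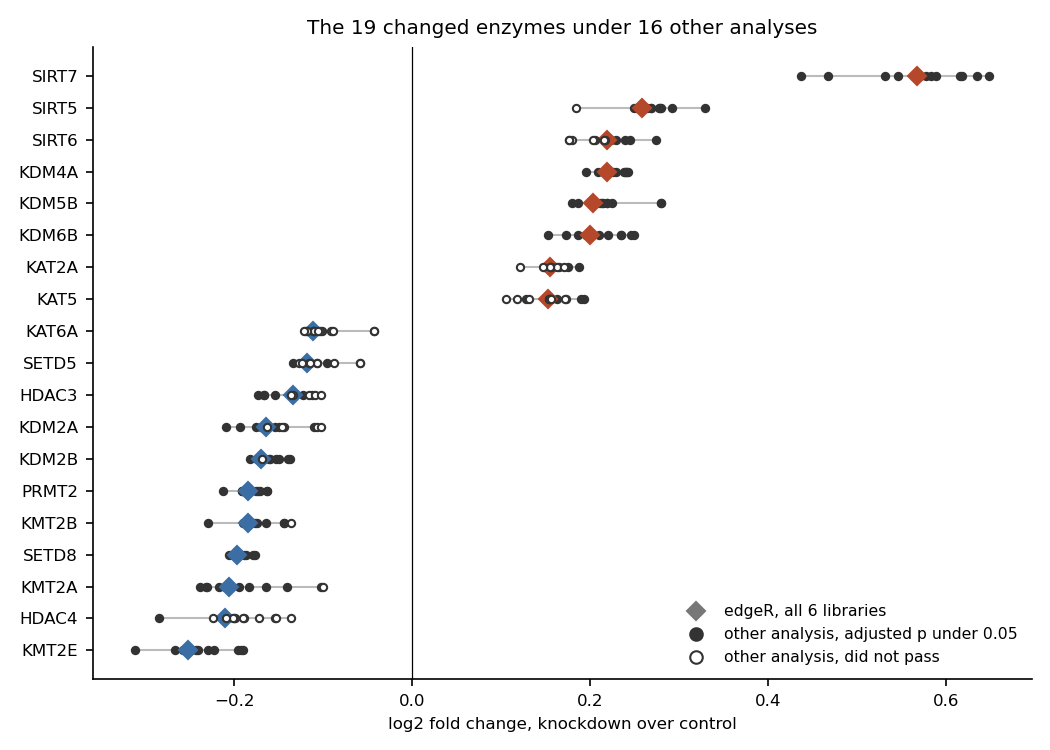
Log2 fold change (knockdown over control) of the 19 changed enzymes in the edgeR fit of all 6 libraries (diamonds; red higher in knockdown, blue lower) and in 16 other analyses (circles, open where the gene did not pass an adjusted p under 0.05). No enzyme crosses 0, SIRT7 stays above 0.43 throughout, and KAT6A has the most open circles.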

How the data were processed

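RNA of 3 knockdown and 3 control libraries of AF22 cells was sequenced, each from 700 ng of total RNA with a strand-keeping kit, per the labels' protocols. Trim Galore 0.6.6, STAR 2.7.10a, bedtools and the build hg38 are named in the submitters' processing notes; how reads were counted, with which annotation and strand rule, is not given in the sources used here. Deposited tables give a whole-number read count per gene symbol, not normalised.

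The counts were filtered with filterByExpr, scaled by TMM and compared by the quasi-likelihood test of edgeR 4.0.16 (R 4.3.3), with no covariate and Benjamini-Hochberg adjustment over all 13632 tested genes at a threshold of 0.05. The tested genes hold 99.858% to 99.869% of each library's counts, and TMM factors lay between 0.980 and 1.015. CPM uses the TMM-scaled library size; the SE is the log2 fold change over the square root of F, and 95% intervals are normal ones from it. Other analyses used scaling by RLE, by upper quartile or by library size only, all genes unfiltered, a filter at 1 CPM in 3 libraries, limma-voom (limma 3.58.1), DESeq2 1.42.0, the replicate number as a block, removal of each library's loess trend (span 0.5) on length and GC content (known for 97.6% of tested genes), and each library left out; the block with that trend removed was added after seeing the data. Replicate pairs differed by 1.23 to 1.99 chi-square units per degree of freedom, more than sampling noise. Each library was counted once, and these values do not show whether the replicates came from separate cultures. The edgeR fit was also run on simulated counts with known changes. Far fewer genes were changed there than were called in the data, so it is no check of the error rate here.

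Coordinates, lengths and 3′ UTRs came from GENCODE 29 (GRCh38), which matched all 67 symbols, and promoters from RefSeq. Named with each library's value are called enzymes of 1.2-fold or more, the 12 with the smallest p and the highest of each family per kilobase; other changed enzymes are given the same way, a choice made after seeing their values. Of each other list, up to 6 called genes with the smallest adjusted p are named, and the further called genes were named after their values were seen. The enzymes and lists were chosen with earlier results of these data known. Intervals cover the spread between libraries only.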

Additional observations from a re-analysis of the deposited data

How the results depend on the processing

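Of the 19 changed enzymes, 7 passed in all 16 other analyses and 0 changed sign; 10 lost the call in a fit without a library and 10 in another analysis. The count of enzymes higher in knockdown, 8, was 5 with DESeq2, 5 at adjusted p under 0.01 and 4 to 7 without a library. The count lower, 11, was 5 with DESeq2, 6 with the length and GC trend removed, 6 at adjusted p under 0.01 and 5 to 9 without a library. For the other histone-modifying enzymes the 3 higher became 0 with DESeq2, 5 with the trend removed, 6 with the replicate block and the trend removed, 0 at adjusted p under 0.01 and 1 to 2 without a library, and the 7 lower became 2 with DESeq2, 2 at adjusted p under 0.01 and 4 to 8 without a library. For complex partners the 10 higher became 4 with DESeq2, 16 with the replicate block alone or with the trend removed, 4 at adjusted p under 0.01 and 6 to 11 without a library. Over all genes DESeq2 called 2877, against 4545 by edgeR and 5248 by edgeR with the replicate block. The cause of these differences was not tested.

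Deviations from the group means correlated at 0.0792, 0.00548 and 0.0713 between libraries of the same replicate number. Between libraries of different numbers the correlations were −0.104 to 0.0387. Whether the replicate numbers pair the libraries was not tested further. With the replicate block 11 enzymes were higher and 12 lower (35.9% called, against 38.5% of all tested genes).

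Signs changed for 17 enzymes that did not pass. With upper-quartile scaling the log2 fold changes were 0.0066 for HDAC10, 0.0056 for HDAC5 and 0.00035 for PRMT1. With library size only they were 0.017 for HDAC10, 0.016 for HDAC5, 0.0056 for HDAC6 and 0.011 for PRMT1. With the trend removed, without and then with the replicate block, they were 0.023 and 0.023 for HDAC2, 0.018 and 0.025 for HDAC5, 0.019 and 0.032 for HDAC8, 0.043 and 0.039 for KAT6B, 0.038 and 0.037 for KAT7, 0.0302 and 0.0325 for KDM5A, 0.041 and 0.041 for KMT2C, 0.012 and 0.012 for KMT2D, and −0.011 and −0.0092 for PRMT6. Without a library they ranged −0.022 to 0.035 for HDAC10, −0.042 to 0.038 for HDAC5, −0.061 to 0.033 for HDAC6, −0.085 to 0.028 for HDAC8, −0.0296 to 0.12 for HDAC9, −0.044 to 0.014 for KAT6B, −0.038 to 0.27 for KDM4C, −0.034 to 0.016 for PRMT1, −0.021 to 0.18 for PRMT3, −0.029 to 0.042 for PRMT6, −0.10 to 0.0018 for SETD1A and −0.0025 to 0.058 for SETD7. The cause was not tested. Scalings moved the median of all genes by at most 0.02. Depth limits the low genes most: SIRT4 and SETD6 had intervals wider than 0.9 on the log2 scale.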
